A study of Mus musculus with 6 samples.

Results

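Axon guidance ligands and receptors were read from RNA of the mouse orbitofrontal cortex, in which the circular RNA circHomer1a had been targeted. They are the 64 genes, of 13348 in the deposited gene table, whose symbols belong to the semaphorin, plexin, neuropilin, ephrin, Eph, Slit, Robo, netrin, netrin-G and Unc5 families. The symbols alone chose them. The 5 ligand and receptor systems held 29 semaphorin, plexin and neuropilin genes, 19 ephrin and Eph genes, 7 Slit and Robo genes, 7 netrin and Unc5 genes, and 2 netrin-G genes. Of these, 33 encode ligands and 31 encode receptors.

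All animals were C57BL/6 mice aged 12 weeks. Control libraries (n = 3) came from mice given a scrambled shRNA, and knockdown libraries (n = 3, labelled SH) from mice with a lentivirus in the orbitofrontal cortex that carried an shRNA against the circHomer1a splice junction. Tissue was taken as a piece, so the libraries mix infected and uninfected cells of every type. The labels do not say that the 3 libraries of a group are separate animals, and p-values then measure only the spread between these libraries, which may be technical. The tables hold no circular RNA, so the knockdown itself is not checked here.

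Guidance ligands are secreted or bound to membranes, and steer growing axons by attraction or repulsion through receptors that act on the cytoskeleton. Semaphorins act mainly through plexins, with neuropilins as co-receptors for secreted class 3 members. Ephrins bind Eph receptor tyrosine kinases on touching cells and can signal in both directions. Slits repel through Robo receptors, and netrins attract through Dcc and repel through Unc5 receptors. In the adult cortex the same families take part in synapse formation, spine shape, myelination and vessel growth.

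Levels are given as FPKM, the fragments scaled by gene length and by mapped fragments. Every guidance gene had a value above 0 in all 6 libraries. A mean above 10 FPKM was reached by 8 genes, 50 lay between 1 and 10 FPKM, and 6 were under 1 FPKM. Efnb3 had the highest mean at 45.1 FPKM, above 93.3% of listed genes. Ephb6 followed at 41.3 FPKM, Sema7a at 33.4, Sema6b at 24.6, Unc5a at 22.2, Efna3 at 17.6, Sema4a at 12.7 and Plxnb3 at 11.0 FPKM. Among the leading 5, neighbours in this order overlapped, as Efnb3 (36.1 to 62.2 FPKM) did Ephb6 (24.0 to 51.1 FPKM). Unc5a, at 19.5 to 26.6 FPKM, lay above Efna3, at 16.0 to 18.5 FPKM, in every library. The 6 genes under 1 FPKM were Sema3a, Slit2, Epha3, Epha6, Ephb2 and Unc5c, and they were not tested. Slit2, a secreted repellent, had the lowest mean of the 64 listed genes at 0.497 FPKM.

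Control 2 stood apart from the other libraries in markers of other cells and regions. In the sentences that follow, values of single libraries stand in the order 1, 2 and 3 within each group. All 9 striatal neuron markers were listed, and they summed to 844, 1359 and 362 FPKM among controls, against 567, 640 and 793 FPKM among knockdown libraries. Penk was the largest part of the sum, at 783 FPKM in control 2. Every marker but Foxp1 was highest in control 2 and lowest in control 3. Foxp1 was at 10.4, 3.63 and 7.18 FPKM among controls. Red cell genes summed to 1665 FPKM in control 2 and to between 320 and 598 FPKM elsewhere. Markers of excitatory neurons, 10 of 10 listed and none at 0, summed to 303, 319 and 517 FPKM among controls, against 339, 354 and 291 FPKM among knockdown libraries.

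No guidance gene passed the test that compared knockdown with control libraries. The test was limma on log2(FPKM + 1), fitted over 11961 genes with a mean of at least 1 FPKM and adjusted over all of them at 0.05. It called 0 of the 58 tested guidance genes, with adjusted p between 0.948 and 0.997, beside 0% of all tested genes. An unadjusted p under 0.05 was found in 5 of the 58 genes, against 3.57% of all tested genes, with 3 higher (2.07% of all) and 2 lower (1.50% of all) in knockdown libraries. The groups did not overlap in 6 of the 58, against 7.92% of all tested genes. Knockdown libraries were the higher in 4 of these, where 4.45% of all tested genes were so, and the lower in 2, where 3.47% were so. The 6 were Unc5b, Sema5a, Plxnb3, Plxna2, Epha5 and Unc5d, in groups of 3 where the smallest two-sided exact permutation p is 0.1. Of these, Sema5a and Unc5d met the minimum mean for testing through the group where they were higher. Both were also among the 5 genes with an unadjusted limma p under 0.05.

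Fold changes of single genes were estimated with a median 95% interval of ± 0.37 on the log2 scale, so for a typical gene a smaller difference was within the error of these libraries. All fold changes are knockdown minus control on the log2(FPKM + 1) scale, which understates the change of low genes. The median over the 58 genes was 0.092, with 36 positive, beside a median of 0.019 and 55.7% positive over all tested genes. It was 0.13 over 31 tested ligands and 0.039 over 27 tested receptors. Without control 2 the median over the 58 genes was 0.018 with 31 positive, and without knockdown 1 it was 0.015 with 33 positive.

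**Figure D1:**
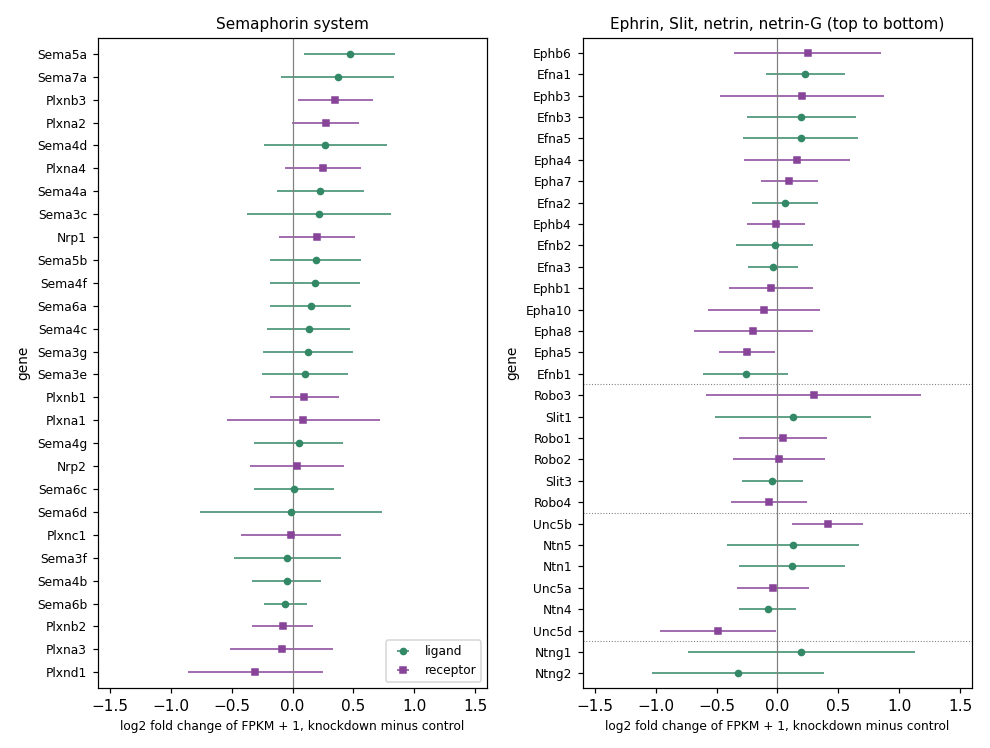
Log2 fold change of FPKM + 1, knockdown minus control (x axis), with its 95% limma interval for each of the 58 tested guidance genes (y axis), ligands as green circles and receptors as purple squares. Intervals of Unc5b, Sema5a and Plxnb3 lie above 0 and those of Epha5 and Unc5d below 0, before any adjustment, and no gene passed after it.

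In the semaphorin system, 20 of the 28 tested genes had a positive estimate, beside 55.7% of all tested genes, without any call. The estimate was positive in 13 of 17 tested ligands and in 7 of 11 receptors, and the median was 0.13 for ligands and 0.089 for receptors. Without control 2, it was positive in 11 ligands and 6 receptors, beside 52.1% of all tested genes, with medians of 0.073 and 0.062. Summed over the 18 ligands, the level was 115, 95.3 and 126 FPKM among controls, against 126, 127 and 128 FPKM among knockdown libraries. The knockdown sums thus lay close together, with control 3 among them, control 1 below them and control 2 the lowest.

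Sema7a, a GPI-anchored semaphorin that binds plexin C1 and integrins, was the most abundant ligand of this system. It was at 28.6, 22.2 and 37.0 FPKM among controls, against 31.1, 42.1 and 39.6 FPKM among knockdown libraries. The groups overlapped, with control 3 above knockdown 1, and the difference was 0.37 on the log2 scale (95% interval -0.09 to 0.83, limma adjusted p = 0.948). It was 0.19 without control 2 and 0.55 without control 3. Sema6b, a transmembrane ligand of A plexins, was the steadiest guidance gene, with 25.1 ± 1.05 FPKM among controls and 24.0 ± 0.324 FPKM among knockdown libraries (SD, n = 3 per group). The interval of its difference ran from -0.24 to 0.12.

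Sema5a, a transmembrane semaphorin with thrombospondin repeats, was low but separated the groups. Its values were 1.05, 0.631 and 1.18 FPKM among controls, against 2.14, 1.61 and 1.36 FPKM among knockdown libraries. Each knockdown library lay above each control. This gave a log2 fold change of 0.47 (95% interval 0.09 to 0.84, unadjusted limma p = 0.0218, adjusted p = 0.948, two-sided exact permutation p = 0.1). It was 0.34 without control 2 and 0.35 without knockdown 1. The control mean was 0.954 FPKM and the knockdown mean 1.70 FPKM, so Sema5a met the 1 FPKM minimum through its knockdown values. Its separation was therefore not read as a difference. The gene lies on chromosome 15, from 32244810 to 32696341, on the plus strand (ENSMUSG00000022231.10).

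Plxnb3, a B plexin that binds Sema5a and is known from cells of the oligodendrocyte lineage, was the most abundant plexin. It was at 11.0, 7.86 and 9.82 FPKM among controls, against 12.2, 11.6 and 13.4 FPKM among knockdown libraries. The groups did not overlap, and the nearest libraries were control 1 and knockdown 2. The estimate on the log2 scale was 0.35 (95% interval 0.04 to 0.66, limma adjusted p = 0.948, exact permutation p = 0.1). It was 0.23 without control 2 and 0.45 without control 1. Its 1 listed transcript, Plxnb3-201, was at 0.350 FPKM in control 3 and between 6.89 and 12.1 FPKM in the other libraries, so a gene value made from listed transcripts gave 1.31. Plxnb3 lies on chromosome X, from 73757090 to 73772514, plus strand (ENSMUSG00000031385.14).

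Plxna2 and Plxna4, receptors for class 6 semaphorins and, with neuropilins, for class 3, had the next smallest p. Plxna2 was at 6.11, 4.82 and 5.67 FPKM among controls, against 7.44, 7.12 and 6.13 FPKM among knockdown libraries. Control 1 and knockdown 3 were nearly level, and no control exceeded a knockdown library. On the log2 scale the difference was 0.27 (95% interval -0.0011 to 0.55, limma adjusted p = 0.948, exact permutation p = 0.1). Plxna4 was at 3.47 ± 0.550 FPKM among controls and 4.30 ± 0.524 FPKM among knockdown libraries (SD, n = 3 per group), with overlapping groups and a log2 fold change of 0.25 (95% interval -0.06 to 0.56). Without control 2 that estimate was 0.15, and without knockdown 3 it was 0.32.

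The other semaphorin genes had overlapping groups and are given by range. Fold changes of the receptors ran from -0.31 for Plxnd1 to 0.35 for Plxnb3, and those of the ligands from -0.058 for Sema6b to 0.47 for Sema5a. The neuropilins, binding partners of secreted semaphorins, were low: Nrp1 was at 1.79 ± 0.385 and 2.19 ± 0.210 FPKM, and Nrp2 at 1.27 ± 0.160 and 1.36 ± 0.467 FPKM, in control and knockdown libraries (SD, n = 3 per group). Plxnd1, the Sema3e receptor, was at 9.71, 13.1 and 7.67 FPKM among controls, against 5.74, 8.20 and 10.2 FPKM among knockdown libraries. Its lowest and highest libraries were knockdown 1 and control 2, the groups overlapped, and the estimate was -0.12 without control 2.

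Among the class 4 semaphorins, which are transmembrane ligands of plexins B and D, Sema4a was the most abundant at 11.8 ± 2.61 FPKM among controls and 13.7 ± 0.694 FPKM among knockdown libraries (SD, n = 3). Sema4f was at 6.68 ± 1.54 and 7.61 ± 0.519 FPKM, and Sema4g at 4.77 ± 0.654 and 5.02 ± 1.10 FPKM. In all 3, control 2 was the lowest library. The secreted class 3 ligands were lower, with means from 0.989 FPKM for Sema3a to 2.79 FPKM for Sema3e. Sema3e, the ligand of Plxnd1, was at 3.35, 2.72 and 1.96 FPKM among controls, and close to even at 2.91, 2.85 and 2.93 FPKM among knockdown libraries. Sema6d, a class 6 ligand of Plxna1, was at 0.970 FPKM in control 2 and at 4.14 FPKM in control 1, with knockdown libraries between 2.08 and 2.53 FPKM. The B plexins Plxnb1, the Sema4d receptor, and Plxnb2 had intervals from -0.19 to 0.38 and from -0.33 to 0.17.

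**Figure D2:**
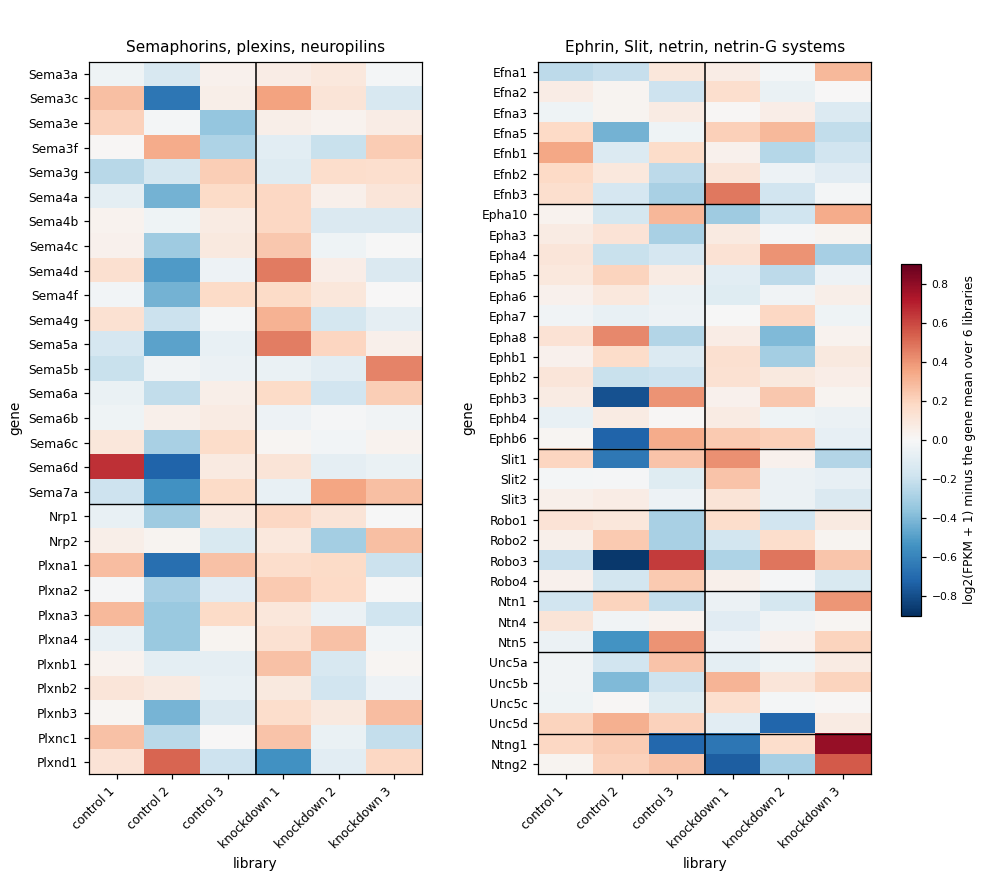
Log2(FPKM + 1) minus the gene's mean over the 6 libraries (colour, red above and blue below the mean) for all 64 guidance genes (y axis) in each library (x axis), with lines between groups of libraries and between ligands and receptors of each system. Control 2 is the lowest library in 30 of the 64 genes, and the strongest colours stand in Ntng1 and Robo3.

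In the ephrin system, positive and negative estimates were equally frequent, at 8 each of 16 tested genes, with a median of 0.026. The 7 ephrins summed to 87.5, 75.5 and 72.5 FPKM among controls, against 101, 76.2 and 78.2 FPKM among knockdown libraries. The 12 Eph receptors summed to 81.8 ± 14.4 FPKM among controls and 87.3 ± 4.97 FPKM among knockdown libraries (SD, n = 3 per group). In both sums the groups overlapped.

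Efnb3, a transmembrane ephrin that halts corticospinal axons at the midline, held most of the ephrin level. It was at 49.3, 39.9 and 36.1 FPKM among controls, against 62.2, 39.3 and 43.9 FPKM among knockdown libraries. Knockdown 1 stood above the rest while knockdown 2 and 3 lay among the controls. The log2 fold change was 0.20 with all libraries, 0.0052 without knockdown 1 and 0.33 without knockdown 2. Efnb1, its X-linked relative, was at 3.92 ± 0.787 and 3.09 ± 0.432 FPKM, with a log2 fold change of -0.26 (95% interval -0.61 to 0.09). Efna1, a GPI-anchored ephrin prominent in vessels, was at 2.58 ± 0.482 and 3.19 ± 0.475 FPKM, with a log2 fold change of 0.23 (95% interval -0.10 to 0.55).

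Ephb6, an Eph receptor without kinase activity, was the most abundant receptor of any system. It was at 40.6, 24.0 and 51.1 FPKM among controls, against 47.5, 46.8 and 38.1 FPKM among knockdown libraries. Control 2 was far below the other 5 libraries and control 3 was the highest. The log2 fold change of 0.25 turned to -0.051 when control 2 was left out.

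Other Eph receptors with means near 10 FPKM had overlapping groups. Epha4, a receptor of both ephrin classes that is also found on astrocytes and spines, was at 10.7, 8.44 and 8.76 FPKM among controls, against 10.8, 13.3 and 7.81 FPKM among knockdown libraries. Knockdown 2 was the highest and knockdown 3 the lowest. Ephb1 was at 8.25 ± 0.914 and 7.99 ± 1.45 FPKM, and Epha10, a receptor without kinase activity, at 8.42 ± 1.50 and 7.82 ± 2.20 FPKM (SD, n = 3 per group). Their intervals ran from -0.40 to 0.29 and from -0.57 to 0.35. Ephb2, which organizes excitatory synapses, was too low to test, at 0.839, 0.480 and 0.497 FPKM among controls, against 0.871, 0.809 and 0.781 FPKM among knockdown libraries.

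Of the ephrins, Efna3 was close to even over libraries, at 17.8 ± 0.741 and 17.3 ± 1.20 FPKM, with an interval from -0.24 to 0.17. Efnb2, a ligand on arteries and neurons, was at 6.17 ± 1.05 and 6.01 ± 0.547 FPKM. Efna5, a repellent in topographic mapping, was lowest in control 2 at 1.67 FPKM and highest in knockdown 2 at 3.40 FPKM, and its groups overlapped.

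Epha5, a receptor of A ephrins in forebrain mapping and synapses, separated the groups in the other direction. It was at 4.99, 5.44 and 4.91 FPKM among controls, against 4.24, 3.77 and 4.44 FPKM among knockdown libraries. All 3 knockdown libraries lay below all 3 controls. The difference was -0.25 on the log2 scale (95% interval -0.48 to -0.02, unadjusted limma p = 0.0385, adjusted p = 0.948, exact permutation p = 0.1), with -0.19 to -0.29 when any 1 library was left out. The gene lies on chromosome 5, from 84054761 to 84417382, on the minus strand (ENSMUSG00000029245.16).

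**Figure D3:**
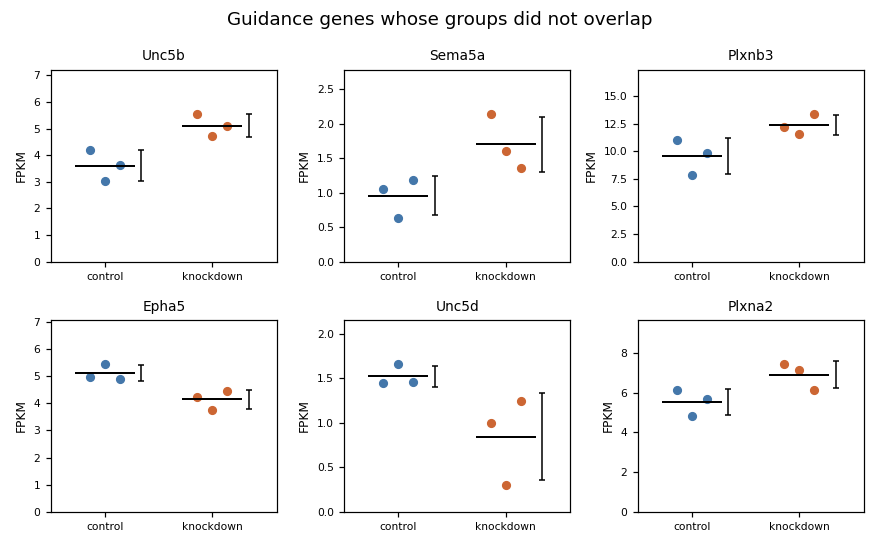
FPKM (y axis) of the 6 tested guidance genes whose groups did not overlap, with each library as a point, control in blue and knockdown in orange, the group mean as a line and the SD as a bar beside it (n = 3 each). Unc5b, Sema5a, Plxnb3 and Plxna2 were higher, and Epha5 and Unc5d lower, in all 3 knockdown libraries than in all 3 controls.

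At the level of transcripts, 108 were listed for 66 gene symbols of these families, and 75 of them had a mean of at least 1 FPKM. Limma over 18476 transcripts called 0 of the 75, beside 0.103% of all tested transcripts. The smallest adjusted p was 0.950. An unadjusted p under 0.05 was found in 3 of the 75, against 3.81% of all tested transcripts. The knockdown libraries were the higher in 2 of the 3 (1.94% of all) and the lower in 1 (1.87% of all). They were Unc5b-201 (log2 fold change 0.39) and Sema5a-201 (0.59), each the only listed transcript of its gene, and Epha5-203. The groups did not overlap in 7, against 8.80% of all tested transcripts, with knockdown higher in 5 (4.57% of all) and lower in 2 (4.22% of all). Of the 7, Sema4a-214 and Unc5d-201 met the minimum mean for testing through the group where they were higher. The estimate was positive in 44 of the 75, against 52.7% of all. Of the 108 transcripts, 18 were listed at 0 in at least 1 library.

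Epha5-203 and Epha5-202 differ by 1 coding exon of 336 bases, shown here because the transcript that holds it had the smallest p of the 75. It is exon 5 of Epha5-203, at chr5:84233583-84233918 on the minus strand of GRCm38, and adds 112 codons within codons 358 to 470. The first and last 60 bases of this exon are in capitals, with 30 bases of the neighbouring exon in lower case, and the third line is the junction in the transcript that lacks it (GENCODE M21 transcript sequences).
Epha5-203 (exon start): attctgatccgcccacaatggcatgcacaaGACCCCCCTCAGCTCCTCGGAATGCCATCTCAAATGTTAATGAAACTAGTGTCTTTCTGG
Epha5-203 (exon end): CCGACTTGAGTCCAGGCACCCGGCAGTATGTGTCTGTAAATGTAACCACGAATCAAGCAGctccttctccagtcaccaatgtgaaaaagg
Epha5-202 (junction): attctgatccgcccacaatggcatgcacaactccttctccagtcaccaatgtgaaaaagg

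Epha5-203, the longer form of 1006 codons, was at 7.35, 7.22 and 5.10 FPKM among controls. It was listed at 0 in knockdown 1 and 2 and was at 3.48 FPKM in knockdown 3. Knockdown libraries lay below each control, with a log2 fold change of -2.18 (95% interval -3.74 to -0.63, limma adjusted p = 0.950). Before adjustment the p was 0.0142. Epha5-202, of 894 codons, was at 5.45, 7.52 and 8.25 FPKM among controls, against 11.2, 9.84 and 7.98 FPKM among knockdown libraries, and here the groups overlapped (log2 fold change 0.41, adjusted p = 0.950). Epha5-201, the remaining listed transcript, stayed between 1.72 and 2.15 FPKM. Of the summed level of these transcripts, Epha5-203 held 49.2%, 43.3% and 33.7% among controls, against 0%, 0% and 26.4% after knockdown. The 202 and 203 forms together were at 13.6 ± 0.997 FPKM among controls and 10.8 ± 0.862 FPKM among knockdown libraries (SD, n = 3 per group), a sum chosen after its values were seen and not tested. These transcript values are assignments of fragments between overlapping models, and 0 is a value of that assignment, with no reads given to check it.

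Epha7 transcripts, shown for their opposite levels in single libraries, differ by a choice of 12 bases. Epha7-201 begins its exon 10 with 12 bases that Epha7-203 skips, at chr4:28947528-28947539 on the plus strand of GRCm38, which adds 4 codons within codons 600 to 604. The lines below give the junction with those bases in capitals and without them. The transcripts also differ at their untranslated 5′ end.
Epha7-201: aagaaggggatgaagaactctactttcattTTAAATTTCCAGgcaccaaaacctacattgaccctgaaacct
Epha7-203: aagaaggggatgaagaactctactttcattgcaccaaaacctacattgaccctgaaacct

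Epha7-201 was at 0.660, 1.42 and 0.632 FPKM among controls, against 3.48, 0.844 and 4.18 FPKM among knockdown libraries. Epha7-203 was at 3.48, 1.90 and 2.49 FPKM in the controls, at 4.05 FPKM in knockdown 2 and listed at 0 in knockdown 1 and 3. Where one was high the other was low, and their sum overlapped between the groups, at 3.53 ± 0.542 and 4.18 ± 0.706 FPKM (SD, n = 3 per group). The log2 fold change of Epha7-201 was 0.90 (95% interval -0.20 to 2.01, limma adjusted p = 0.950). Epha7-202, a form of 610 codons that ends before the kinase part and is known as truncated EphA7, was the highest listed Epha7 transcript in every library, at 7.10 ± 0.578 and 7.21 ± 1.09 FPKM. The gene total was 4.90 ± 0.0793 and 5.33 ± 0.547 FPKM, on the scale of the gene model and not of single transcripts.

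Sema4a, a transmembrane semaphorin, had 8 listed transcripts, 4 of them with the same length of 760 codons. Sema4a-214 was at 0.00318, 0.00364 and 0.00360 FPKM among controls. In knockdown libraries it was at 9.12, 3.35 and 0.00891 FPKM. Knockdown 3 was thus near 0 like the controls, although no values overlapped (log2 fold change 1.82, 95% interval -0.24 to 3.87, limma adjusted p = 0.950). With a control mean of 0.00348 FPKM and a knockdown mean of 4.16 FPKM, Sema4a-214 met the 1 FPKM minimum through its knockdown values. Its separation was therefore not read as a difference. The 4 transcripts together were at 12.2, 5.73 and 12.2 FPKM among controls against 18.1, 9.49 and 12.8 FPKM after knockdown, with overlapping groups. Sema6c-214 and Plxna2-201 completed the 8 transcripts of smallest p, with log2 fold changes of -0.38 and 0.30. The Sema6c gene had a log2 fold change of 0.015.

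**Figure D4:**
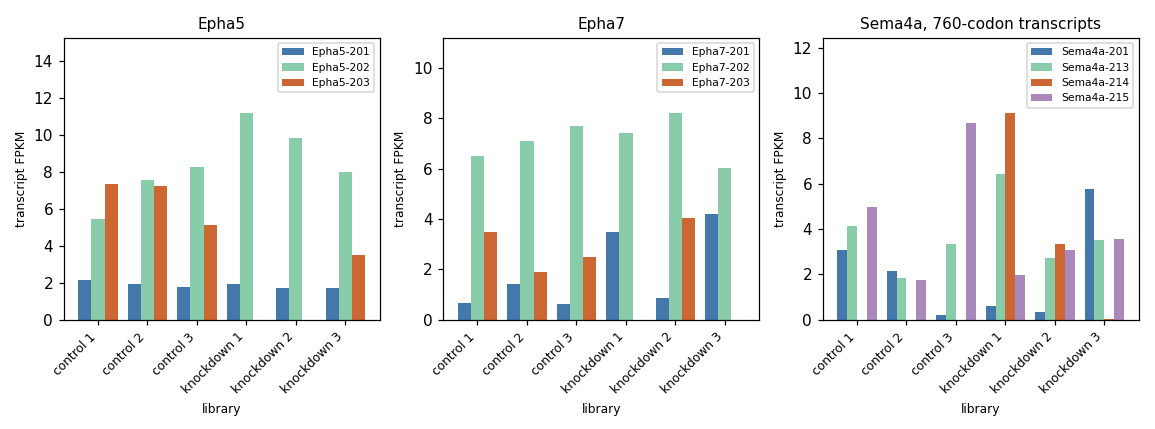
Transcript FPKM (y axis, bars from 0) in each library (x axis) for the listed Epha5 and Epha7 transcripts and for the Sema4a transcripts of 760 codons. Epha5-203 is absent as a bar in knockdown 1 and 2, Epha7-203 in knockdown 1 and 3, and Sema4a-214 has visible bars in knockdown 1 and 2.

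In the Slit system no gene separated the groups, and the largest differences lay between single libraries. Slit1, the neuronal Slit and the most abundant one, was at 9.79, 5.05 and 10.3 FPKM among controls, against 11.6, 8.71 and 6.88 FPKM among knockdown libraries. Control 2 and knockdown 3 were the lowest. Its log2 fold change of 0.13 turned to -0.16 without control 2 and to -0.046 without knockdown 1. Slit3 was at 2.79 ± 0.151 and 2.69 ± 0.330 FPKM (SD, n = 3 per group). Its log2 fold change of -0.041 turned to 0.013 without knockdown 3 and to 0.0039 with every library rescaled to one common sum.

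Robo3, a divergent receptor known for midline crossing in the hindbrain and spinal cord, had the highest gene value of the Robos. Its 1 listed transcript, Robo3-202, averaged 0.521 FPKM, whereas the listed Robo2 transcripts summed to 4.73 FPKM on average, so the order of Robos differs between the tables. The Robo3 gene was at 3.58, 1.89 and 7.15 FPKM among controls, against 3.35, 6.35 and 5.26 FPKM among knockdown libraries. Both the lowest and the highest library were controls, and the log2 fold change of 0.30 turned to -0.062 without control 2. Robo4, the endothelial member, was at 1.48 ± 0.342 and 1.35 ± 0.150 FPKM, and its estimate of -0.071 turned to 0.028 without control 3. Robo1 and Robo2, the main Slit receptors of axons, had log2 fold changes of 0.047 and 0.011, with intervals from -0.32 to 0.41 and from -0.37 to 0.39.

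The netrin system held both the smallest p and the largest negative estimate of the 58 genes, each in an Unc5 receptor. Unc5b, a repulsive netrin receptor also known from endothelium, was at 4.18, 3.01 and 3.64 FPKM among controls, against 5.55, 4.71 and 5.08 FPKM among knockdown libraries. The groups did not overlap. The difference was 0.41 on the log2 scale (95% interval 0.12 to 0.70, unadjusted limma p = 0.0122, adjusted p = 0.948, exact permutation p = 0.1). Leaving out any 1 library gave 0.32 (without control 2) to 0.50 (without control 1). Unc5b lies on chromosome 10, from 60762593 to 60831581, on the minus strand (ENSMUSG00000020099.8).

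Unc5d, known from layer 4 and from migrating upper-layer neurons, where it also binds Flrt proteins, was low. It was at 1.45, 1.66 and 1.46 FPKM among controls, against 0.992, 0.299 and 1.24 FPKM among knockdown libraries. The controls lay close together, and the knockdown values lay below them by very different amounts. The control mean was 1.52 FPKM and the knockdown mean 0.844 FPKM, so Unc5d met the 1 FPKM minimum through its control values. Its separation was therefore not read as a difference. The estimate on the log2 scale was -0.49 (95% interval -0.97 to -0.01, limma adjusted p = 0.948, exact permutation p = 0.1), and -0.26 without knockdown 2. Unc5d lies on chromosome 8, from 28646717 to 29219636, minus strand (ENSMUSG00000063626.6).

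Unc5a, the most abundant netrin receptor, was at 22.6 ± 3.65 FPKM among controls and 21.9 ± 1.33 FPKM among knockdown libraries (SD, n = 3 per group). Its estimate of -0.036 turned to 0.084 without control 3 and to 0.022 with every library rescaled to one common sum. The ligands were low. Ntn4, a netrin of basement membranes, was at 1.99 ± 0.159 and 1.83 ± 0.118 FPKM, and Ntn1, the founding netrin, was at 1.14 ± 0.350 and 1.35 ± 0.499 FPKM. The Ntn1 estimate of 0.12 turned to -0.045 without knockdown 3. Of Dcc, the attractive netrin receptor, only 1 transcript was read here. Dcc-202 was at 0.451, 0.473 and 0.269 FPKM among controls, against 0.716, 0.588 and 0.529 FPKM among knockdown libraries, under the minimum for testing. Each knockdown value lay above each control, with a mean of 0.398 FPKM among controls and 0.611 FPKM among knockdown libraries. If transcripts, like genes, were listed only with a group mean above 0.5 FPKM, Dcc-202 was listed through its knockdown values. Its separation was therefore not read as a difference. Unc5c, another Unc5 receptor, was also under the minimum for testing, at 0.693 ± 0.0690 and 0.812 ± 0.116 FPKM.

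Ntng1 had the widest FPKM ratio between libraries of all 64 genes, and neither netrin-G gene separated the groups. They encode GPI-anchored presynaptic proteins that bind the postsynaptic netrin-G ligands, and not Dcc or Unc5. Ntng1 was at 1.45, 1.53 and 0.323 FPKM among controls, against 0.374, 1.41 and 2.72 FPKM among knockdown libraries. The highest library was 8.42 times the lowest, with low values in both groups. Its estimate of 0.20 turned to -0.11 without control 3 and to -0.15 without knockdown 3. Ntng2 was at 5.43, 6.29 and 6.56 FPKM among controls, against 2.78, 4.15 and 8.25 FPKM among knockdown libraries. The knockdown libraries lay on both sides of the controls (log2 fold change -0.33, 95% interval -1.03 to 0.38). The estimate was -0.037 without knockdown 1 and -0.68 without knockdown 3. A Ntng2 value made from listed transcripts gave -0.0051. Lrrc4c, the postsynaptic partner of netrin-G1, was at 6.39 FPKM in knockdown 1 and between 16.2 and 22.4 FPKM in the other libraries. Lrrc4, the partner of netrin-G2, was at 12.3 ± 1.81 and 13.0 ± 1.69 FPKM (SD, n = 3 per group).

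Libraries of one group also differed among themselves. The ratio of the highest to the lowest library within a group had a median of 1.49 among controls and 1.33 among knockdown libraries over the 58 tested genes, beside 1.27 and 1.22 over all tested genes. Over all 6 libraries of both groups, the ratio had a median of 1.70 over the 64 genes, was under 1.5 in 16 genes and at least 3 in 7. Control 2 was the lowest library in 28 of the 58 tested genes (48.3%), against 31.8% of all tested genes, and knockdown 1 was the highest in 17 (29.3%), against 26.5%. Of the 30 genes lowest in control 2 among all 64, 19 were in the semaphorin system. Ephb3 was at 0.755 FPKM in control 2 and between 2.07 and 2.99 FPKM in the other libraries, and Plxna1 at 3.54 FPKM against 5.34 to 7.78 FPKM.

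Some genes were extreme in the libraries that differed in striatal markers. Plxnd1 was highest in control 2, where the striatal sum was highest, as were 20.0% of all tested genes. Its lowest library was knockdown 1, and not control 3, where the striatal sum was lowest. Ephb6 and Robo3 were lowest in control 2, as were 31.8% of all tested genes, and highest in control 3. They and Plxnd1 were picked for this comparison after their values were seen. The part of the striatal markers in the differences was not tested. In tissue pieces fewer cells of a type and less RNA per cell cannot be told apart.

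Oligodendrocyte markers were all listed, and each of the 8 had a higher mean in knockdown libraries. Their sum was 1371, 1094 and 1166 FPKM among controls, against 1718, 1281 and 1449 FPKM among knockdown libraries, with overlapping groups. Plxnb3, and Sema4d, a transmembrane semaphorin of oligodendrocytes, are known from this lineage, and their libraries can be set beside that sum. Sema4d was at 5.30, 3.00 and 4.52 FPKM among controls, against 6.88, 4.94 and 4.20 FPKM among knockdown libraries. Like the marker sum, it was highest in knockdown 1 and lowest in control 2. The same libraries were the extremes of 12 of the 64 genes, among them Sema5a, Unc5b and Plxna2, and of 11 of the 58 tested genes (19.0%), against 12.8% of all tested genes. Plxnb3 was lowest in control 2 and highest in knockdown 3. The part of the markers in these values was not tested. Endothelial markers summed to between 58.0 and 76.2 FPKM in control and between 57.5 and 69.9 FPKM in knockdown libraries.

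**Figure D5:**
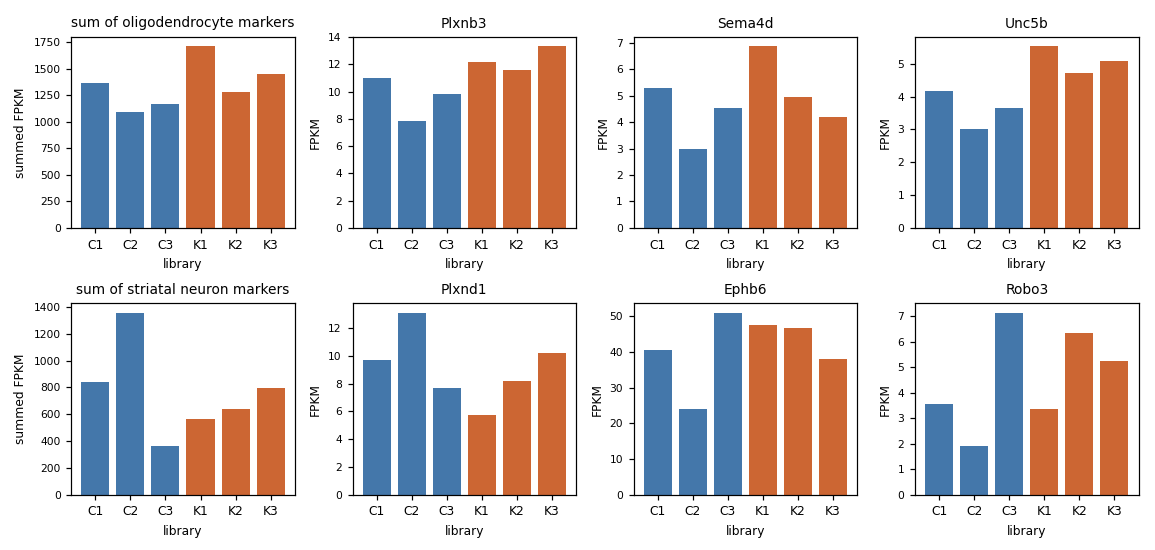
FPKM in each library (x axis, C1 to C3 control in blue, K1 to K3 knockdown in orange, bars from 0) of the summed oligodendrocyte and striatal neuron markers and of 6 guidance genes. The oligodendrocyte sum, Sema4d and Unc5b are lowest in control 2 and highest in knockdown 1, and the striatal sum and Plxnd1 are highest in control 2, where Ephb6 and Robo3 are lowest.

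Genes that carry the signal inside the cell did not pass either. A list of 58 downstream gene symbols, such as the CRMP family, exchange factors and cofilin kinases, had 57 with a gene value. Of these, 55 were tested and 0 passed, with a smallest limma adjusted p of 0.948 and 0 with an unadjusted p under 0.05 (3.57% of all tested genes). Their median log2 fold change was 0.068, beside 0.019 over all tested genes, and 0.015 without control 2. The groups did not overlap in 1 of the 55 (7.92% of all tested genes), Dock1, an activator of Rac, at 2.31 ± 0.159 FPKM among controls and 2.77 ± 0.338 FPKM among knockdown libraries (SD, n = 3). Crmp1, the semaphorin mediator, was at 21.5 ± 1.25 and 21.5 ± 0.503 FPKM, and Ngef, an exchange factor that acts downstream of EphA4, at 128 ± 17.3 and 123 ± 10.4 FPKM (SD, n = 3 per group). Rac1 was at 11.0 FPKM in knockdown 3 and between 52.6 and 65.6 FPKM in the other 5 libraries.

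Among 31 further guidance and adhesion genes outside these families, 26 were tested and 0 passed, with a median log2 fold change of 0.075, and -0.0098 without control 2. Cntn2, an adhesion protein also found in myelinated fibres, was at 20.1, 14.4 and 17.9 FPKM among controls, against 27.4, 22.7 and 23.0 FPKM among knockdown libraries. The groups did not overlap, and the log2 fold change was 0.47, with a limma p of 0.0115 before adjustment and 0.948 after it. It was 1 of the 26 with an unadjusted p under 0.05 (3.57% of all tested genes) and 1 of the 26 without overlap (7.92% of all tested genes), and no other was either. As with the oligodendrocyte sum, its lowest library was control 2 and its highest knockdown 1.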

How the data were processed

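Gene and transcript expression was deposited as FPKM values, per the file headers, in 6 libraries (3 control, 3 knockdown). Per the submitters' processing notes, which give no versions, FastQC, cutadapt, HISAT2 and StringTie were used. The build, the annotation release and the use of strand in assigning fragments are not given in the sources used here, so genes with antisense partners are less certain. Of the 64 genes, 64 had an identifier in GENCODE M21 (GRCm38) and 59 had its coordinates; of 108 transcripts, 103 did. Coordinates of genes are those of the deposited tables. An empty line was left out of each.

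Depth is unknown, so precision comes from the replicates. FPKM summed to between 256047 and 285833 per library. The test was limma 3.58.1, run in R 4.3.3 on log2(FPKM + 1) (intensity trend, mean of at least 1 FPKM, Benjamini-Hochberg at 0.05). Each listed gene had a group mean above 0.5 FPKM. Single genes were also compared by two-sided exact permutation tests. Functions were tested on simulated data.

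Genes and lists were chosen with earlier results of these data known. Values are given by rule for the most abundant ligand and receptor, the 4 smallest p per system and all genes without overlap of groups. Log2 fold changes are given by rule for the 8 transcripts with the smallest p. Other named genes were picked after their values were seen. Alternatives covered pseudocount, filter, scaling, variance model, weights, a replicate block, summed transcripts and each library left out. Dcc, Sema3b, Sema3d, Efna4, Epha1, Epha2 and Ntn3 had no listed gene value and were not analysed as genes.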

Additional observations from a re-analysis of the deposited data

How the results depend on the processing

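No guidance gene or transcript passed under any of the alternatives tried, and the smallest adjusted p of a named gene was 0.721. Of 343 values of 21 named genes, 331 kept their sign and 12, in 8 genes, turned it. These were Slit3 (0.0039) and Unc5a (0.022) with every library rescaled to one common sum. When 1 library was left out, the ranges were -0.051 to 0.48 for Ephb6, -0.045 to 0.25 for Ntn1, -0.15 to 0.57 for Ntng1, -0.062 to 0.68 for Robo3, -0.17 to 0.028 for Robo4, -0.16 to 0.29 for Slit1, -0.11 to 0.013 for Slit3 and -0.13 to 0.084 for Unc5a. The median over guidance genes ran from 0.015 to 0.12 with 1 library left out, and the number with a positive estimate from 31 to 40. With a mean of at least 5 FPKM it was 13 of 22 tested, since fewer genes were tested. The median was 0.038 with array weights, 0.047 after quantile normalization and 0.14 with one common sum, where the median of all genes was 0.071.

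Over all genes the calls numbered 1 with one common sum, 3 with array weights, 4 with summed transcripts and 0 to 3 with 1 library left out. Of all transcripts, 19 were called with the settings above, 8 with a mean of at least 5 FPKM, 44 with no intensity trend and between 11 and 31 with 1 library left out. The replicate block called 0 genes and 0 transcripts, with 552 and 686 at an unadjusted limma p under 0.05, where the unblocked fit had 427 genes and 704 transcripts. For libraries that share a number, deviations from the group mean had correlations of 0.18, -0.13 and -0.071, and those of control 2 were closest to knockdown 3 (0.27), so the numbers were not taken as pairs. What causes these changes was not tested.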
